A study of Homo sapiens with 30 samples.

Results

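The comparison was between the cardiac progenitor culture of day 6 (D6) and the early muscle culture of day 10 (D10), with day 8 (D8) as the midpoint. Genes were chosen from the deposited time-course table by 1 rule: an entry was kept when it reached at least 5 FPKM (fragments per kilobase of transcript, scaled to the size of the library) at D6 or D10, which left 11319 of 41495 entries, 10278 of them protein-coding. The 3 time points account for 6 of the 30 libraries of the series, 2 per time point. The table joins the 2 libraries of a time point into 1 value, so every value below is a single number without a spread between libraries, and no difference was tested. Higher and lower mean a difference between D6 and D10 of at least 1 in log2(FPKM + 1), that is 2-fold on a scale that understates the change of genes with low values.

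The cells came from H7, an established human embryonic stem cell line, grown on a coated surface. They received 12 µM CHIR99021, a GSK3 inhibitor that switches on WNT signalling, for 24 hours, then 5 µM IWP4, which blocks WNT secretion, for 2 days, both in RPMI1640 medium with B27 minus insulin. From then on the medium was RPMI1640 with standard B27, so D6, D8 and D10 share the whole drug treatment and, by the labels, differ in time only. Unlike the D31 cardiomyocytes of the series, which were purified on Percoll, the cells of these 3 days were neither purified nor sorted, per the labels. Each library was made from 500 ng of total RNA after removal of ribosomal RNA, with 10 PCR cycles and read pairs of 100 nt. In such a mixed culture, more cells of a type and more RNA per cell cannot be told apart.

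Heart muscle forms from mesoderm cells that first switch on transcription factors such as NKX2-5, GATA4, TBX5 and MEF2C and then load the sarcomere, the contractile unit in which myosin thick filaments slide along actin thin filaments anchored at the Z-disc and the M-band. Beating also needs calcium release channels, surface ion channels and an energy supply by creatine kinase, myoglobin and fatty acid handling. Early cardiomyocytes still divide, and their division slows as the heart matures.

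Many genes of the contractile apparatus were higher at D10, and many genes of DNA replication, mitosis and the replication-dependent histones were lower. Of the 38 kept members of 3 lists of contractile genes, 20 were at least 2-fold higher and 1 was lower, with a median difference of 1.15 in log2(FPKM + 1). Of the 68 members of the 2 lists of mitosis and DNA replication, 44 were at least 2-fold lower and 0 were higher, with a median of -1.15. Over all 11319 kept entries 4.15% were higher (470) and 3.34% lower (378), and the median difference was -0.07. Among the 10278 protein-coding genes, 305 (2.97%) were higher, 294 (2.86%) were lower and 8178 (79.6%) lay within 1.5-fold. Of all calls 55.4% were higher, and 67.1% after the columns were rescaled to a common median ratio of protein-coding genes (601 higher and 295 lower). Values near the threshold were close together: LCP1 was just inside at 13.01 FPKM at D6 and 27.04 at D10, and HMBOX1 just outside at 17.3 and 35.7. On the lower side CENPO was just inside at 22.2 and 10.6 FPKM, and NELL2 just outside at 47.6 and 23.3.

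The filter favours higher calls among genes that pass it at D10 alone. Over all kept entries 804 passed at D10 alone, and 294 of these were called higher. Of the 49 contractile genes listed, 11 reached 5 FPKM on neither day, and 14 of the 38 kept did so at D10 alone, 12 of which were called higher. Among the 24 contractile genes already at 5 FPKM or more at D6, 8 were higher and 1 was lower, against 176 higher (1.67%) of the 10515 such entries in all. All 68 listed genes of mitosis and DNA replication had at least 5 FPKM at D6. In the calcium and energy lists the genes kept through D10 alone were 4 and 5, and each of them was called higher.

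**Figure D1:**
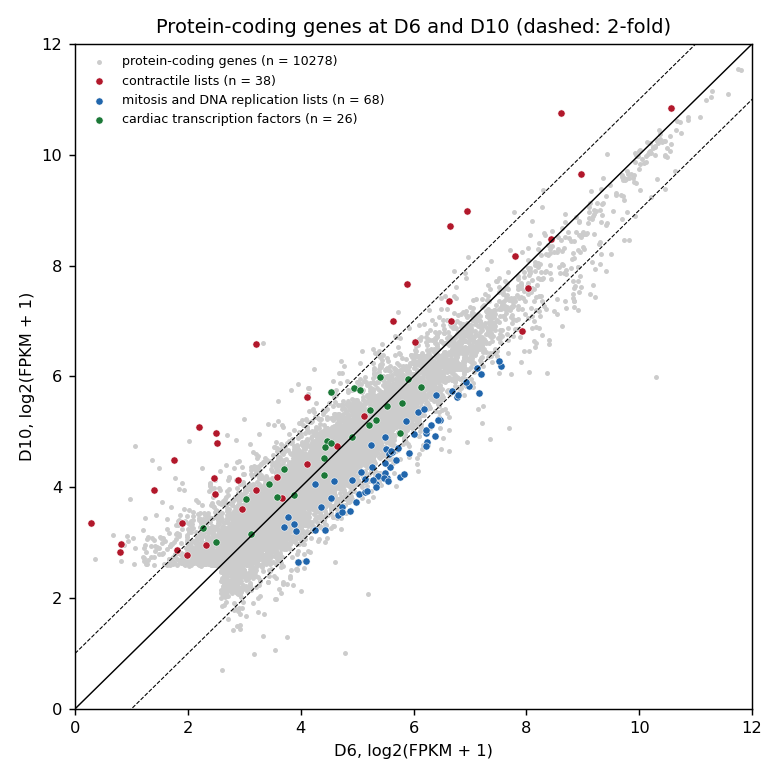
Each point is a protein-coding gene with its log2(FPKM + 1) at D6 on the horizontal axis and at D10 on the vertical axis. The solid line marks equal values and the dashed lines a 2-fold difference. Of the 38 contractile genes (red) 20 lie above the upper dashed line, 44 of the 68 genes of mitosis and DNA replication (blue) lie below the lower one, and 25 of the 26 cardiac transcription factors (green) lie between them.

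The 4 markers that define the early muscle state here were all higher at D10. They were chosen with earlier results of these data known, so this describes the comparison and is no support for it. CKM and MYOM1 passed the filter through D10 alone. CKM, the muscle creatine kinase, stood at 1.08 FPKM at D6, 7.05 at D8 and 25.6 at D10, the largest difference of all protein-coding and long noncoding genes whose D8 value lay between (3.68 in log2). MYL3, the essential light chain of ventricular and slow muscle myosin, stood at 8.19 FPKM at D6, 72.7 at D8 and 94.9 at D10. NPPA, the atrial natriuretic peptide, stood at 9.06 FPKM at D6, 38.2 at D8 and 95.9 at D10. All 3 were higher at each later day, but MYL3 had 88.8% of its log2 difference at D8, against 60.01% for NPPA and 53.02% for CKM. MYOM1, the M-band protein myomesin, stood at 2.36 FPKM at D6, 15.3 at D8 and 21.5 at D10 and resembled MYL3, with 83.1% of its difference at D8. At D5 the 4 markers summed to 6.32 FPKM, at D6 to 20.7, at D8 to 133, at D10 to 238 and at D15 to 1179. NPPA shares exon sequence with CLCN6 on the opposite strand, and the strand setting is not given in the sources used here. CLCN6 stood at 9.36 FPKM at D6 and 11.5 at D10, and the part of the overlap in either gene's values was not tested.

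**Figure D2:**
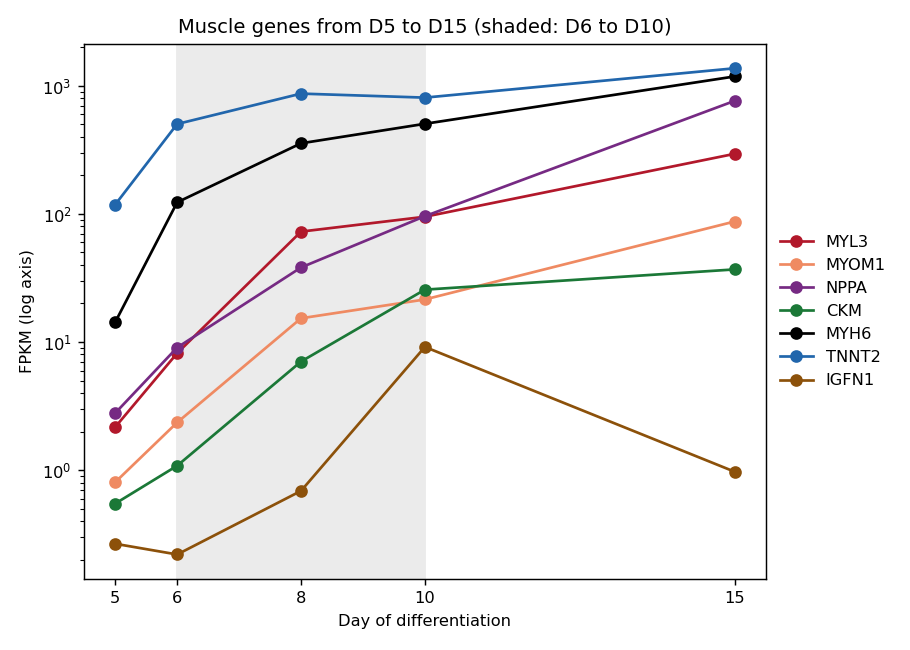
FPKM (log axis) of 7 muscle genes by day of differentiation, 1 value per gene and day, with the span from D6 to D10 shaded. MYL3, MYOM1, NPPA and CKM climb through D8 to D10 and on to D15, TNNT2 is already at 502 FPKM at D6, and IGFN1 reaches 9.16 FPKM at D10 alone and is back at 0.975 at D15.

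Other cell types were checked by their own markers. The general heart muscle markers TNNT2, MYH6, MYL7, ACTN2 and NKX2-5 summed to 1050.1 FPKM at D6, 2668 at D8 and 3119 at D10. The skeletal muscle regulators MYOD1, MYOG, MYF5 and PAX7 summed to 0.410, 0.374 and 0.455 FPKM, so the myogenic factors of skeletal muscle were near 0 on all 3 days. Blood markers summed to 5.15 to 8.52 FPKM, neural markers to 2.12 to 3.30, pluripotency markers to 5.93 to 12.2, and the endothelial markers CDH5, TEK and TIE1 to 5.04 to 6.08. Endoderm and liver markers (AFP, APOA1, FOXA2, HNF4A and EPCAM) summed to 58.9 FPKM at D6, 68.6 at D8 and 57.4 at D10. Epicardial markers (WT1, TCF21, UPK3B and BNC1) summed to 23.3, 19.8 and 26.1 FPKM. Fibroblast markers (COL1A1, COL3A1, LUM, DCN and POSTN) summed to 525 FPKM at D6, 541 at D8 and 851 at D10, and smooth muscle markers (MYH11, CNN1, ACTA2 and TAGLN) to 325, 693 and 502. In the fibroblast sum COL1A1 and COL3A1 stood higher at D10, while LUM stood at 98.8 FPKM at D6 and 50.05 at D10. RNA of matrix genes was present in every column, and the part of other cell types in the differences was not tested.

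Thick filament genes were the contractile genes with the largest median difference, 2.13 over 7 kept genes, 5 of them higher. MYH6, the alpha heavy chain of fetal and atrial myosin, stood at 123 FPKM at D6, 355 at D8 and 504 at D10. MYL7, the regulatory light chain of atrial myosin, stood at 392 FPKM at D6, 1379.9 at D8 and 1720.2 at D10, the highest level of the list. MYBPC3, the cardiac myosin-binding protein C, stood at 4.68 FPKM at D6, 20.2 at D8 and 30.5 at D10. These 3 genes had 75.1%, 85.1% and 76.8% of the log2 difference at D8. MYH7B, a minor heavy chain, was an exception in timing, with 0.767 FPKM at D6, 1.76 at D8 and 6.85 at D10 and 29.96% at D8. The remaining 2 members were not called: MYL4, the light chain of fetal and atrial muscle, stood at 345 FPKM at D6, 548 at D8 and 358 at D10, a peak at D8, and MYLK3, the cardiac myosin light chain kinase, at 24.03 FPKM at D6 and 25.7 at D10.

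Of 12 kept thin filament genes 5 were higher and 1 lower, with a median of 0.52. ACTC1, the cardiac alpha-actin, stood at 99.3 FPKM at D6, 256 at D8 and 419 at D10. The troponin C gene TNNC1 stood at 48.9 FPKM at D6, 151 at D8 and 127 at D10 and the inhibitory subunit TNNI3 of adult heart at 4.57 FPKM at D6, 9.08 at D8 and 13.7 at D10. Both troponin genes were called higher, with differences of 1.36 and 1.40, whereas 3 other troponin genes were not called. TNNT2, cardiac troponin T, stood at 502 FPKM at D6, 867 at D8 and 807 at D10, and TNNI1, the fetal inhibitory subunit, at 222 FPKM at D6, 318 at D8 and 286 at D10, each with its highest value of the 3 days at D8. TNNT1, the slow skeletal troponin T, stood at 16.2 FPKM at D6, 14.3 at D8 and 20.4 at D10. NEBL, which encodes nebulette, had nearly the same D6 level as ACTC1 but was not called, at 100.0 FPKM at D6, 116 at D8 and 127 at D10. The only contractile gene called lower was TPM3, a tropomyosin that many non-muscle cells also make, at 240.3 FPKM at D6, 195 at D8 and 111 at D10. It was no longer called when the columns were rescaled to a common median or sum, and the muscle tropomyosin TPM1 stood at 1510.5 FPKM at D6 and 1836 at D10.

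Of 19 kept Z-disc and M-band genes 10 were higher and 0 lower, with a median of 1.45. ACTN2, the sarcomeric alpha-actinin that cross-links actin at the Z-disc, stood at 3.601 FPKM at D6, 15.1 at D8 and 33.1 at D10. CSRP3, the muscle LIM protein, stood at 1.64 FPKM at D6, 9.70 at D8 and 14.5 at D10, and the Z-disc adaptor LDB3 at 4.69 FPKM at D6, 14.8 at D8 and 26.7 at D10. Titin, the giant spring of the sarcomere, was abundant from the start: TTN stood at 57.8 FPKM at D6, 133 at D8 and 203 at D10. The D15 value of TTN is listed at 0, where ACTN2, MYH6 and MYL7 were higher than at D10, so that 0 may be a failed estimate and no difference is given for it. IGFN1, an immunoglobulin-like and fibronectin-like Z-disc protein, was late, with 0.2204 FPKM at D6, 0.691 at D8 and 9.16 at D10, 15.4% of the difference at D8, and a return to 0.975 FPKM at D15. The list holds 9 genes that were not called, all of them above 0 in log2 difference, such as ANKRD1, a stress-responsive repeat protein of the sarcomere, with 98.1 FPKM at D6 and 163 at D10.

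Sarcomeres need chaperones to fold myosin and to build the filaments. Of 14 kept chaperone and assembly genes 7 were higher and 0 lower (median 1.04). The shares over all kept entries were 4.15% higher and 3.34% lower. KLHL41, a muscle protein of the kelch family, stood at 0.589 FPKM at D6, 2.36 at D8 and 7.75 at D10. SMPX, a small muscle protein, stood at 6.998 FPKM at D6, 33.6 at D8 and 36.5 at D10 and had 94.8% of its difference at D8. The small heat shock protein HSPB7 stood at 2.72 FPKM at D6, 7.06 at D8 and 15.8 at D10 and its relative HSPB8 at 4.597 FPKM at D6, 13.99 at D8 and 16.6 at D10. UNC45B, the chaperone of muscle myosin, stood at 12.8 FPKM at D6 and 30.1 at D10. Among the genes called, KLHL41, HSPB7, HSPB8 and CRYAB passed the filter through D10 alone. SMPX, UNC45B and HSPB1 already had at least 5 FPKM at D6. The general chaperone HSP90AA1 was not called, with 239.8 and 193 FPKM.

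Of 14 kept calcium handling genes 6 were higher and 0 lower, with a median of 0.69. RYR2, the calcium release channel of the sarcoplasmic reticulum, stood at 6.23 FPKM at D6, 14.9 at D8 and 27.9 at D10. The L-type calcium channel subunits CACNA1D and CACNA1C stood at 2.27 FPKM at D6, 5.75 at D8 and 11.5 at D10 and at 4.34 FPKM at D6, 9.098 at D8 and 14.7 at D10, respectively. HRC, a calcium-binding protein inside the reticulum, stood at 4.93 FPKM at D6, 14.1 at D8 and 18.5 at D10, and triadin (TRDN), which anchors the release complex, at 6.79 FPKM at D6, 19.5 at D8 and 19.7 at D10. The calcium pump ATP2A2 and its inhibitor phospholamban (PLN) were not called: ATP2A2 stood at 109.7 FPKM at D6 and 137 at D10, and PLN at 100.3 and 119. Of the 10 genes with at least 5 FPKM at D6 2 were higher, RYR2 and TRDN. CACNA1C, CACNA1D and HRC passed the filter through D10 alone, as did the channel subunit CACNB2. At D5 CACNA1C stood at 9.31 FPKM and CACNB2 at 6.51, and neither was 2-fold higher at D10 against D5. Of the 14 genes 7 were higher against D5 (background 5.06%). The channel subunit CACNA2D1, at 9.46 FPKM at D6 and 10.5 at D10, and the T-type channel CACNA1G, at 5.18 and 5.84, were not called.

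Among 10 kept ion channel and conduction genes, 3 were higher and 1 lower, against 4.15% and 3.34% of all kept entries. KCNIP2, a partner subunit of the channels of the transient outward potassium current, stood at 1.58 FPKM at D6, 7.12 at D8 and 21.6 at D10. It passed the filter through D10 alone. BVES, a membrane protein of heart muscle that binds cyclic AMP, stood at 8.63 FPKM at D6, 17.5 at D8 and 30.1 at D10, and the T-type calcium channel CACNA1H at 6.21 FPKM at D6, 10.6 at D8 and 16.5 at D10. GJA1, which encodes connexin 43, the main gap junction protein of working heart muscle, was lower, at 111 FPKM at D6, 65.2 at D8 and 51.5 at D10. GJA1 was no longer called when the columns were rescaled to a common median or sum. HCN4, the pacemaker channel, was below the threshold at 5.896 FPKM at D6 and 11.97 at D10. In the natriuretic peptide list only NPPA was called among 4 genes: NPPB stood at 41.96 FPKM at D6, 69.4 at D8 and 73.5 at D10.

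Of 19 kept muscle energy genes 8 were higher and 0 lower (median 0.72), against 4.15% and 3.34% of all kept entries. Besides CKM, the higher genes were led by MB, the oxygen-binding myoglobin, at 1.81 FPKM at D6, 6.66 at D8 and 19.2 at D10. PYGM, the muscle enzyme that breaks down glycogen, stood at 5.48 FPKM at D6, 16.9 at D8 and 29.8 at D10, and FABP3, the fatty acid-binding protein of heart, at 13.2 FPKM at D6, 37.98 at D8 and 52.7 at D10. ENO3, the muscle enolase, stood at 32.1 FPKM at D6 and 74.2 at D10, and PPARGC1A, a coactivator of mitochondrial genes, at 3.74 and 11.8. Of the 14 energy genes with at least 5 FPKM at D6 3 were higher, PYGM, FABP3 and ENO3. The 5 kept through D10 alone, CKM, MB and PPARGC1A among them, were all called higher. Of 26 kept genes of the citric acid cycle, fatty acid oxidation and pyruvate dehydrogenase 0 were called in either direction, and their median was 0.02. Of 20 glycolysis genes 1 was called, the aldolase ALDOA at 312 FPKM at D6, 529.6 at D8 and 659.7 at D10, and 16 lay above 0 (median 0.54).

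Transcription factors of the heart were called higher about as often as kept entries in general, of which 4.15% were. The count was 1 of 26 kept factors, HAND2, a basic helix-loop-helix factor of the heart fields, at 22.1 FPKM at D6, 37.6 at D8 and 51.6 at D10. NKX2-5 stood at 29.8 FPKM at D6, 50.9 at D8 and 54.6 at D10, GATA4 at 58.5 FPKM at D6, 62.5 at D8 and 61.0 at D10, and MEF2C at 45.2 FPKM at D6, 43.4 at D8 and 43.3 at D10. The median difference of the 26 factors from D6 to D10 was 0.21, against 0.66 from D5 to D6. MEF2D, which lies just outside the threshold, stood at 3.80 FPKM at D6, 6.45 at D8 and 8.58 at D10 and had a log2 difference of 0.997. Against D5 10 of the 26 factors were higher at D10 (background 5.06% of the kept entries), NKX2-5 among them at 3.09 FPKM at D5. Muscle splicing regulators had 0 of 12 genes called, and the nearest was RBM24, an activator of muscle exons, at 21.05 FPKM at D6 and 41.7 at D10.

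Promoters of 4 muscle genes are shown because these genes were higher together and because each holds letters known from muscle promoters. They come from RefSeq (GRCh38.p14), cover the 250 bases before the gene's start, and run 5′ to 3′ on the gene's strand, with matches on either strand in capitals. CKM lies at chr19:45322876-45323125 (minus strand) with 2 E-boxes, NPPA at chr1:11847784-11848033 (minus strand) with a TATA box and 4 E-boxes, MYOM1 at chr18:3219969-3220218 (minus strand) with a CArG box, an E-box and 2 GATA sites, and ACTC1 at chr15:34795550-34795799 (minus strand) with a TATA box, a CArG box and an E-box. The E-box was searched as CANNTG, the TATA box as TATAAA, the GATA site as AGATAA and the MCAT site as CATTCC, together with the CArG box bound by SRF and the MEF2 site, and 0 of the matches shown overlap another. MYL3, the remaining marker of early muscle, is not shown, and its promoter held 0 matches to these motifs.
CKM: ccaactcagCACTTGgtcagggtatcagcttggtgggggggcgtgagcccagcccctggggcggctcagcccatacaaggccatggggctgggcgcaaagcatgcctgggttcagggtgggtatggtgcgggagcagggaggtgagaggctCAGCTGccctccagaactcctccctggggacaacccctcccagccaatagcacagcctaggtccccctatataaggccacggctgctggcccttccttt
NPPA: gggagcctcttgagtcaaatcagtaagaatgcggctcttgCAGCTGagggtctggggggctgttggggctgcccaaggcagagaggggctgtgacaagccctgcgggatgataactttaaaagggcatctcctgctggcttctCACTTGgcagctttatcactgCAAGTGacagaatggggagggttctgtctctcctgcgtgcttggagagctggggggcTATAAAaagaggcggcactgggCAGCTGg
MYOM1: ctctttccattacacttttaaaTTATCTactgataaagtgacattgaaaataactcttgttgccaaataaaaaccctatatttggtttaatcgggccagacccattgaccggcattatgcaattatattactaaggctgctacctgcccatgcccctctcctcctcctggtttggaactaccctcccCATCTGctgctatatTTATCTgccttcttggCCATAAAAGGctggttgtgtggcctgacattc
ACTC1: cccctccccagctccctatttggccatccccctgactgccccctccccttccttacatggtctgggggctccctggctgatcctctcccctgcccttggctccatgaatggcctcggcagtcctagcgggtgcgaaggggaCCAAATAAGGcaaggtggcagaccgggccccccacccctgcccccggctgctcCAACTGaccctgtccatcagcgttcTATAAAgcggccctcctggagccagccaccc

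A RefSeq promoter was found for 16 of the 20 contractile genes called higher. A CArG box lay in 5 of them (ACTA1, ACTC1, LDB3, MYL7 and MYOM1), 31.3%, against 1.06% of the 8490 matched protein-coding genes kept and 1.14% of all 27305 promoters. A MEF2 site lay in 3 (MYBPC3, MYOZ2 and TTN), against 0.377% of the matched kept genes. E-boxes are common: 12 of the 16 had one, and so did 51.6% of the matched kept genes. A TATA box was found in 3 of the 16, a GATA site in 5 and a MCAT site in 3, against 5.01%, 4.13% and 8.999% of the matched kept genes. A match describes letters in this window and is neither a bound site nor a cause, and the gene's start in RefSeq need not be the start used in these cells.

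Muscle and division genes had different shares of their difference at D8. For the 305 protein-coding genes called higher, a median of 53.9% of the log2 difference was present at D8 (quartiles 38.7% and 68.0%). For the 294 called lower it was 29.6% (21.1% and 43.8%). Among the contractile genes called the median was 66.03%, and among the called genes of mitosis and DNA replication 27.5%. From D6 to D8 14 of the 38 contractile genes were at least 2-fold higher, against 1.15% of all kept entries, and from D8 to D10 3 were, against 1.3%. Of the 68 division genes 0 were 2-fold lower from D6 to D8 (background 0.76%), and 10 were from D8 to D10 (background 1.03%). A D8 value between D6 and D10 was found for 292 of the 305 higher genes (95.7%) and for 283 of the 294 lower genes (96.3%). This is a description only, since D8 is the midpoint of the comparison and a large difference leaves more room for it to lie between.

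**Figure D3:**
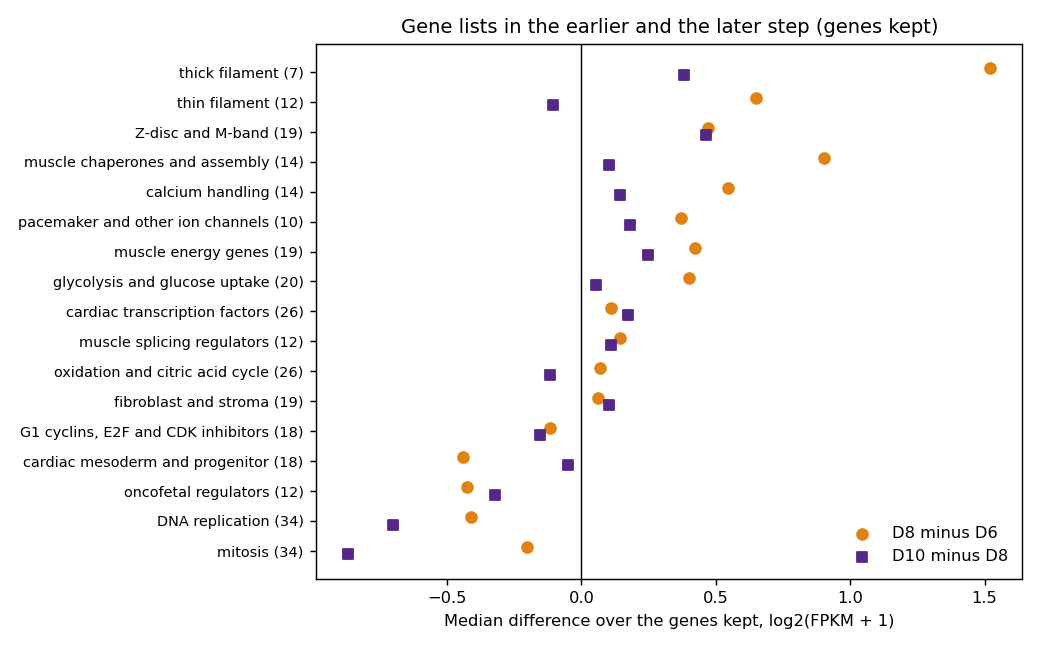
Median difference in log2(FPKM + 1) over the kept genes of 17 lists, from D6 to D8 (orange circles) and from D8 to D10 (purple squares), with the number of genes in brackets. Thick filament genes have 1.52 in the earlier step and 0.38 in the later one, and mitosis genes -0.20 and -0.87.

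DNA replication genes were lower in 23 of 34 cases and higher in 0, with a median of -1.16. RRM2, the regulated subunit of the enzyme that makes deoxynucleotides, stood at 55.8 FPKM at D6, 40.3 at D8 and 17.9 at D10. MCM2, a subunit of the replicative helicase, stood at 73.5 FPKM at D6, 45.96 at D8 and 25.9 at D10, and MCM5, another subunit, at 82.6 FPKM at D6, 53.6 at D8 and 29.4 at D10. FEN1, which trims the fragments of the lagging strand, stood at 45.7 FPKM at D6, 29.8 at D8 and 16.4 at D10. Each of these 4 genes was lower at D8 than at D6 and lower again at D10. At D15 MCM2 stood at 7.03 FPKM and FEN1 at 3.94.

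Mitosis genes were lower in 21 of 34 cases and higher in 0, with a median of -1.10, and their difference came later. From D6 to D8 the median was -0.20, against -0.41 for DNA replication. CCNB1, cyclin B1, which drives entry into mitosis, stood at 187 FPKM at D6, 158 at D8 and 71.5 at D10. CCNA2, cyclin A2, stood at 74.6 FPKM at D6, 61.1 at D8 and 27.3 at D10, and NUSAP1, a protein of the spindle, at 142 FPKM at D6, 124 at D8 and 50.96 at D10. AURKB, a kinase of chromosome segregation, held 8.14% of its difference at D8, with 50.5 FPKM at D6, 47.2 at D8 and 21.4 at D10. HMMR, a spindle-associated hyaluronan receptor, had the largest difference of the list (-1.57), at 52.99 FPKM at D6, 56.5 at D8 and 17.2 at D10. MKI67, the proliferation antigen, was not called: it stood at 23.1 FPKM at D6, 24.4 at D8 and 16.3 at D10. Of 18 genes for G1 cyclins, E2F factors and CDK inhibitors 0 were called, and the median was -0.26.

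Replication-dependent histone genes, whose transcripts accumulate in S phase and largely lack poly(A) tails, were kept in these ribo-depleted libraries. Of 60 kept genes with histone cluster names 56 were lower and 0 higher, with a median of -1.46. The median was -0.32 from D6 to D8 and -1.08 from D8 to D10. The linker histone HIST1H1B stood at 592 FPKM at D6, 489 at D8 and 173 at D10, HIST1H2BM at 336 FPKM at D6, 223 at D8 and 94.96 at D10, and HIST1H4K at 98.2 FPKM at D6, 64.4 at D8 and 24.3 at D10. Without these genes, 238 protein-coding genes were lower. Histone genes of a type are near-identical copies, so reads may be split between them, and HIST1H2AL and HIST1H3J overlap a neighbouring histone gene (HIST1H2BN and HIST1H2AM), which makes single values uncertain.

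**Figure D4:**
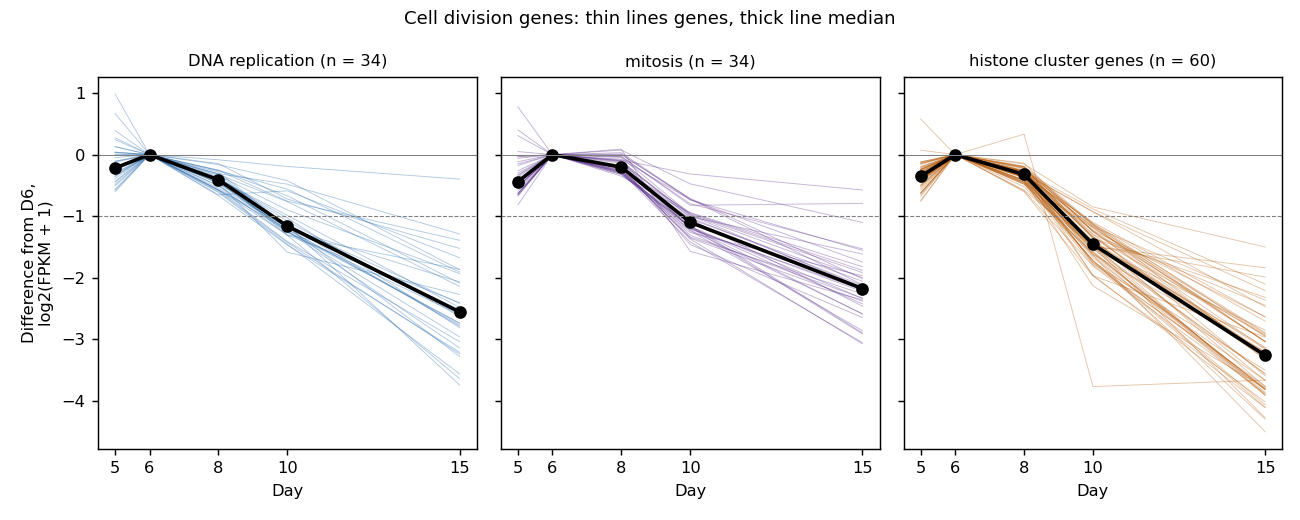
Difference from D6 in log2(FPKM + 1) by day for 34 DNA replication genes, 34 mitosis genes and 60 histone cluster genes, with 1 thin line per gene, the median as a thick line and a dashed line at 2-fold lower. All 3 medians lie below 0 at D5, are highest at D6 among the days plotted, and all 3 lie below the dashed line at D10.

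Among D5, D6, D8, D10 and D15 the medians of the mitosis and DNA replication genes were highest at D6, but those of D1, D2 and D3 were higher than any of these. The median of the mitosis genes was 66.3 FPKM at D2, 25.4 at D4, 43.4 at D5, 49.3 at D6 and 23.6 at D10, and that of the DNA replication genes 46.4, 20.8, 33.9, 36.1 and 16.6. Against D5 in place of D6, 20 of the 68 genes of mitosis and DNA replication were lower at D10 (7 and 13), against 2.63% of the kept entries. From D5 to D6 the median difference of the 68 genes was 0.31, while that of all protein-coding genes was 0.14. CCNB1 stood at 106 FPKM at D5 and MCM2 at 47.99. For the contractile genes the count against D5 was 23 of 38 higher, against 5.06% of the kept entries.

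Exon length also moved with the difference between D6 and D10. Protein-coding genes were put into 5 groups of equal size by summed exon length. In the group with the shortest exons (177 to 3110 bases) the median difference was -0.29, and in the group with the longest (8675 bases and over) it was 0.16. From D5 to D6 the order was opposite, with 0.41 and -0.24. The genes called lower had a median exon length of 3547.5 bases, and those called higher 5915.5, against 5368 for all. When the median of its length group was subtracted from each difference, an alternative added after seeing the data, 22 contractile genes were higher, 25 of the 68 division genes and 41 of the 60 histone cluster genes were lower. The part of length in these differences was otherwise not tested.

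**Figure D5:**
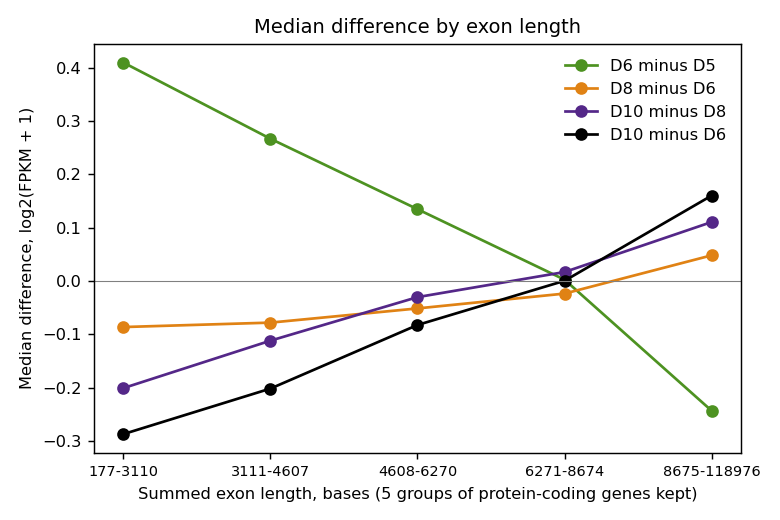
Median difference in log2(FPKM + 1) over protein-coding genes kept, in 5 groups of equal size by summed exon length in bases, for 4 pairs of days. The D10 minus D6 line (black) climbs from -0.29 to 0.16 and the D6 minus D5 line (green) descends from 0.41 to -0.24.

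Promoters of 2 of the lower genes, both among the genes described above, are shown because the CCAAT box, bound by the factor NF-Y, was the most frequent match among the lower genes. CCNB1 lies at chr5:69166900-69167149 (plus strand) with 2 such boxes, and HIST1H2BM at chr6:27814772-27815021 (plus strand) with 5, all in capitals as above. The motifs searched on both strands were the CCAAT box, the cell cycle homology region (CHR), spelled TTTGAA, and the E2F site, spelled either TTTCCCGC or, in its other form, TTTGGCGC.
CCNB1: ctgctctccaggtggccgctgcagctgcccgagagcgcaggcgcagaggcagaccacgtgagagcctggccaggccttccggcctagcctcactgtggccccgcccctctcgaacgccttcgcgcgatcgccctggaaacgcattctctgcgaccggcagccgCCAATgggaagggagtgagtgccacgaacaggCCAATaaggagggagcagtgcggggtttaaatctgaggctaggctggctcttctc
HIST1H2BM: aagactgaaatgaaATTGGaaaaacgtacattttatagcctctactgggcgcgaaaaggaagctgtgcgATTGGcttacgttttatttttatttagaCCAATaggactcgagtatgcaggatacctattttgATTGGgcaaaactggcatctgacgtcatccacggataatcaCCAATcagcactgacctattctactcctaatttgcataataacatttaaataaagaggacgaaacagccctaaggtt

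A promoter was found for 238 of the 294 protein-coding genes called lower. A CCAAT box lay in 137 (57.6%), against 36.3% of the matched kept genes and 33.0% of all promoters. A CHR lay in 46 (19.3%, against 8.32%) and an E2F site in 10 (4.20%, against 3.26%). A TATA box lay in 43 (18.1%, against 5.01%), 32 of them in histone promoters. Histone promoters made up 46 of the 238 and held a CCAAT box in 41 cases, a CHR in 16 and an E2F site in 0. Matches were found for 35 of the 44 division genes and for 237 of the 305 genes called higher, under 80% of either set, so no share is given for them.

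Most genes of earlier stages lay below their D6 level, though few passed 2-fold. Of 18 kept genes of cardiac mesoderm and progenitors 1 was called, APLNR, the apelin receptor of mesoderm, at 66.8 FPKM at D6, 39.6 at D8 and 18.5 at D10, and 14 lay below 0 (median -0.54). PDGFRA, a receptor of cardiac mesoderm, stood at 173 FPKM at D6 and 139 at D10, and SFRP5, a secreted WNT inhibitor of the early heart, at 87.2 and 45.9. At D5 PDGFRA stood at 156 FPKM and SFRP5 at 44.6. From D5 to D6 the median difference of the 18 genes was 0.46. Against D5, 2 of the 18 were higher at D10 and 1 lower (background 5.06% and 2.63%). Of 12 oncofetal regulators 3 were lower and 0 higher: LIN28A, an RNA-binding protein that blocks let-7 maturation, at 279.8 FPKM at D6, 161 at D8 and 99.0 at D10, DPPA4, a chromatin protein of stem cells, at 49.4 FPKM at D6, 25.6 at D8 and 18.02 at D10, and TRIM71, a ubiquitin ligase of early development, at 39.5 FPKM at D6, 24.4 at D8 and 18.3 at D10. The de novo DNA methyltransferase DNMT3B was lower as well, at 27.7 FPKM at D6, 19.1 at D8 and 12.3 at D10. POU5F1, the central pluripotency factor, was already at 4.05 FPKM at D6.

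Signalling genes had calls at about the background rate of 4.15% higher and 3.34% lower. Of 26 genes of BMP, TGF-beta and growth factor signalling 1 was higher and 1 lower. ERBB4, the neuregulin receptor of heart muscle, stood at 1.36 FPKM at D6, 4.79 at D8 and 9.85 at D10, and BMP10, a growth factor of the trabeculated heart wall, at 14.3 FPKM at D6, 6.04 at D8 and 4.69 at D10. Of 16 WNT pathway genes 0 were called, and of 7 NOTCH pathway genes 1, HES4, a repressor downstream of NOTCH, at 11.1 FPKM at D6, 19.9 at D8 and 24.04 at D10. BMP4 stood at 49.5 FPKM at D6 and 26.3 at D10, and the BMP target ID1 at 298 and 339. At D5 BMP4 stood at 30.1 FPKM and ID1 at 202.

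Matrix and stroma genes went both ways. The counts of this paragraph stand beside 4.15% higher and 3.34% lower over all kept entries. Of 19 fibroblast and stroma genes 5 were higher and 1 lower, with a median of 0.22. POSTN, the matrix protein periostin, stood at 2.56 FPKM at D6, 6.22 at D8 and 9.497 at D10 and passed the filter through D10 alone. COL1A1, the alpha-1 chain of type I collagen, stood at 105 FPKM at D6, 124 at D8 and 238 at D10. GPC3, a surface proteoglycan, stood at 218 FPKM at D6, 375 at D8 and 497 at D10, while THY1, a surface protein of stromal cells, was lower at 26.8 FPKM at D6, 19.7 at D8 and 10.6 at D10. Below the threshold, COL1A2, the partner chain of COL1A1, stood at 185 FPKM at D6, 120.1 at D8 and 102 at D10, LUM, the proteoglycan lumican, at 98.8 FPKM at D6, 73.9 at D8 and 50.05 at D10, and PDGFRB, a growth factor receptor of stromal cells, at 24.2 FPKM at D6, 13.9 at D8 and 12.8 at D10. Of 11 smooth muscle genes 1 was called, the myosin light chain kinase MYLK at 5.29 FPKM at D6, 12.4 at D8 and 12.8 at D10, and of 7 epicardial genes 0 were. Endothelial genes had 0 of 3 called and liver and endoderm genes 2 of 11, both lower: APOA2, an apolipoprotein, at 13.1 FPKM at D6, 4.52 at D8 and 4.25 at D10, and KRT19, a keratin of simple epithelia, at 358 FPKM at D6, 250.4 at D8 and 144 at D10.

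Stress and immediate early genes were higher in 4 of 18 cases and lower in 0, with all 18 above 0 (median 0.66). Over all kept entries 4.15% were higher and 3.34% lower. From D5 to D6 the median difference of the 18 genes was -0.29, and against D5 2 of them were higher at D10 (background 5.06%). ATF3, a stress-induced transcription factor, stood at 10.5 FPKM at D6, 18.8 at D8 and 33.8 at D10, with 26.4 at D5, and FOSB, an immediate early factor, at 13.7 FPKM at D6, 26.0 at D8 and 31.9 at D10, with 31.1 at D5. Both D5 values were thus nearer to D10 than to D6. EGR3, another immediate early factor, stood at 3.28 FPKM at D6, 4.18 at D8 and 9.65 at D10, and DDIT3, a factor of the unfolded protein response, at 11.1 FPKM at D6, 15.4 at D8 and 35.8 at D10.

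Counts in the remaining lists stand beside the same background, 4.15% higher and 3.34% lower, and rest on few genes in several of them. Of 11 imprinted genes 2 were higher and 1 lower, with DLK1, a surface protein of fetal tissues, at 33.1 FPKM at D6, 64.4 at D8 and 86.8 at D10, and NNAT, a small membrane protein, at 65.9 FPKM at D6, 39.4 at D8 and 22.1 at D10. Of 4 neural genes kept, DCX, a microtubule protein of young neurons, was higher at 3.03 FPKM at D6, 6.25 at D8 and 9.08 at D10, and TUBB3 was called lower. The only skeletal muscle gene kept was ACTN3, an alpha-actinin of fast muscle, at 4.54 FPKM at D6, 2.59 at D8 and 11.5 at D10, with its D8 value below both others. Cholesterol synthesis had 0 of 21 genes called, HOX 0 of 9, and blood 0 of 2. The 77 kept genes of ribosomal proteins had 0 calls and a median of -0.18.

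Among the 15 largest decreases, several genes belonged to none of the lists. NPY, the precursor of neuropeptide Y, was the largest at 35.6 FPKM at D6, 6.901 at D8 and 3.205 at D10 (-3.12 in log2). CTSV, a lysosomal cysteine protease, stood at 328 FPKM at D6, 147 at D8 and 66.02 at D10, and CRABP1, a retinoic acid-binding protein, at 147 FPKM at D6, 44.6 at D8 and 34.9 at D10. TNC, the matrix protein tenascin C, stood at 164 FPKM at D6, 73.6 at D8 and 28.2 at D10 and at 330.2 FPKM at D15, above its D6 level. CGA, the alpha subunit of the glycoprotein hormones, stood at 10.7 FPKM at D6, 1.77 at D8 and 1.096 at D10. MDGA1 (a surface protein of neurons), SEMA3E (a guidance factor) and SPOCK3 (a matrix proteoglycan) ended at 0.615 to 3.37 FPKM at D10.

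Among the 15 largest increases, those outside the muscle lists were UNC5B-AS1, C7, EEF1A2 and WNK2. UNC5B-AS1, annotated as antisense, stood at 1.44 FPKM at D6, 14.5 at D8 and 18.9 at D10, and its value is uncertain because the strand setting is not given. C7, a complement component, stood at 0.964 FPKM at D6, 5.21 at D8 and 12.8 at D10, EEF1A2, the translation elongation factor of muscle and nerve, at 3.07 FPKM at D6, 9.58 at D8 and 27.5 at D10, and WNK2, a kinase of ion transport, at 2.42 FPKM at D6, 6.31 at D8 and 17.02 at D10. All 15 genes were lower at D8 than at D10 and higher at D8 than at D6, as the rule for naming them required.

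A pair of nuclear RNAs that were higher at D10 than at D6 had been higher still at D5. MALAT1, an abundant nuclear long noncoding RNA, stood at 422 FPKM at D6, 746 at D8 and 1433 at D10, but already at 1967 FPKM at D5, and NEAT1, the RNA of paraspeckles, at 2.98 FPKM at D6, 9.301 at D8 and 17.5 at D10, with 18.5 at D5. Of 209 kept long noncoding genes 28 were higher and 6 lower at D10, and 19 of those 28 had a D5 value above that of D6. Small nuclear RNA entries were called in 51 of 73 cases (69.9%, 28 higher and 23 lower) and small nucleolar RNA entries in 30 of 70 (42.9%). The 1041 kept entries not typed as protein-coding, which include entries without a matched type, held 165 of the 470 higher and 84 of the 378 lower calls.

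D8 lay at least 2-fold outside both neighbours for 37 entries, 9 above and 28 below, of which 6 were protein-coding. PSMA2, a proteasome subunit, stood at 6.62 FPKM at D6, 95.8 at D8 and 6.43 at D10, and at 227 at D5 and 88.6 at D15. NDUFA7, a respiratory chain subunit, is listed at 30.1 FPKM at D6 and 41.4 at D10, and at 0 at D5, D8 and D15. The neural tubulin TUBB3, called lower, is listed at 207 FPKM at D6, 0 at D8 and 32.6 at D10, so its call is not read as a difference between the cells. The other 3 were MOB4, F11R and ZNF709. D6 and D10 stood on one side and D5, D8 and D15 on the other for all 6 of these genes.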

How the data were processed

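RNA was sequenced from 2 libraries per time point. The authors deposited 1 FPKM value per gene and time point, and the unit was taken from the values and from Cufflinks, which the submitters' processing notes name with TopHat2 2.0.8b, Bowtie2 2.1.0.0 and the human genome build hg19. For annotation, strand setting, scaling between columns and read depth the sources used here give no value. The sort tables were not used here. Differences of log2(FPKM + 1) were computed with Python 3.11.15, pandas 2.3.3, numpy 2.4.6 and scipy 1.17.1, for entries of at least 5 FPKM at D6 or D10, and tested on simulated data. Exon lengths and overlaps came from GENCODE 29 by name. Gene types came from GENCODE 29, then from RefSeq symbols and synonyms (94.8% of kept entries matched). Named genes were the 15 largest increases and decreases among called protein-coding or long noncoding genes with D8 between, the 4 markers, and members of 36 lists, called ones first, then those of the highest level. 1 gene that this rule names is not reported here. A few others, such as MEF2D, CLCN6, PSMA2, NDUFA7 and the promoter matches, were chosen after their values were seen. The genes and lists were chosen with earlier results of these data known. RefSeq promoters were matched by current, then older symbol.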

Additional observations from a re-analysis of the deposited data

How the results depend on the processing

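No paired analysis was possible because the table joins the 2 libraries of a time point, and no library could be left out. The counts of higher and lower entries (470 and 378) were 199 and 237 with a pseudocount of 5, 1197 and 1363 at 1.5-fold, 168 and 87 at 3-fold, 145 and 199 with D8 in place of D6, and 199 and 84 with D8 in place of D10. Higher entries were 790 with a filter of 1 FPKM or none, and 305 among protein-coding genes. Rescaling columns to the median ratio moved D10 by -0.11 in log2 and gave 601 higher and 295 lower (67.1% of calls higher, against 55.4%). Rescaling to equal sums gave 702 and 241. Taking differences within exon-length groups, added after seeing the data, gave 336 higher and 184 lower among the 9844 protein-coding genes with a length, against 296 and 284 of the same genes without it. D8 lay between in 93.6% of called entries, and in 91.7% with a pseudocount of 5, 91.8% at 3-fold and 96.0% of protein-coding genes. Contractile genes higher (20) were 3 with D8 in place of D6 and 13 with D8 in place of D10. Division genes lower (44) were 10, 0, 1 at 3-fold, 20 with D5 in place of D6 (also added later) and 25 within exon-length groups. They were 38 with columns rescaled to the median ratio and 32 with columns rescaled to equal sums. Histone cluster genes lower (56) were 55 and 49 in these 2 settings. Of the 30 largest differences, 29 passed with a pseudocount of 5 (not SEMA3E), 18 of the 26 kept with D8 in place of D6, and 22 of the 28 kept with D8 in place of D10, and 0 of those kept changed sign in the alternatives run. Median differences of the lists for endoderm, HOX and RNA composition changed sign with the scaling. The cause of these shifts was not tested, and single values leave library spread unknown.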

Other observations

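A pair of gene groups was put together after the values had been seen, and is given as values only. ATF3 and DDIT3 are also in the report's stress list, and SLC2A1, ALDOC, PGK1 and LDHA in its glycolysis list. Of 30 kept genes of the response to amino acid shortage and to stress of the endoplasmic reticulum, 8 were at least 2-fold higher at D10 than at D6 and 0 were lower, with a median of 0.40 in log2(FPKM + 1), against 4.15% of all kept entries. TRIB3, a pseudokinase of that response, stood at 1.86 FPKM at D6, 3.44 at D8 and 7.45 at D10, ASNS, the asparagine synthetase, at 22.8 FPKM at D6, 39.6 at D8 and 59.5 at D10, and HERPUD1, a protein of protein quality control in the reticulum, at 16.5 FPKM at D6, 26.9 at D8 and 50.05 at D10. The called genes TRIB3, CHAC1 and CEBPB passed the filter through D10 alone. ATF4, the factor at the head of the response, stood at 261 FPKM at D6, 248 at D8 and 248 at D10 and was not called, nor was PHGDH, an enzyme of serine synthesis, at 143 FPKM at D6 and 94.8 at D10.

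Of 26 kept genes of the hypoxia response 8 were higher and 0 lower, with a median of 0.63. Among all kept entries 4.15% were higher and 3.34% lower. The called genes ENO2, BHLHE40 and HIF3A passed the filter through D10 alone. ENO2, an enolase, stood at 3.77 FPKM at D6, 7.85 at D8 and 19.3 at D10, FAM162A at 17.9 FPKM at D6, 42.1 at D8 and 69.3 at D10, and VEGFA, the vascular growth factor, at 51.6 FPKM at D6, 76.3 at D8 and 142 at D10. BNIP3, a mitochondrial membrane protein, had nearly all of its difference at D8, with 40.1 FPKM at D6, 81.5 at D8 and 82.1 at D10. The oxygen sensor EGLN3 stood at 9.74 FPKM at D6 and 7.86 at D10 and was not called, and CA9 was below the filter.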
